A study of Mus musculus with 24 samples.

Results

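Tears carry a set of proteins that hold microbes in check on the eye, and the genes of 8 such proteins were followed here: lactotransferrin (Ltf), the polymeric immunoglobulin receptor (Pigr), peptidoglycan recognition protein 1 (Pglyrp1), lactoperoxidase (Lpo), the lysozymes Lyz1 and Lyz2, lipocalin 2 (Lcn2) and secretory leukocyte peptidase inhibitor (Slpi). The genes were chosen by name and matched by Ensembl identifier, and all 8 were found among the 63862 genes listed in the RNA-seq tables. The samples were lacrimal gland (LG) tissue and lacrimal gland stem cell (LGSC) spheres of C57BL/6 mice. LGSC spheres were grown from glands of 6 to 8 week-old mice, enzymatically dispersed to single cells and embedded in Matrigel under a serum-free medium with EGF, FGF10, Wnt3A and the ROCK inhibitor Y-27632, so every sphere library shares these factors. Passage 2 spheres were taken at culture day 5 (2 libraries) and at days 7, 10 and 14 (3 libraries each), passage 10 spheres at day 7 (1 library), and tissue came from adult glands and from embryonic glands at E17.5 and at E19.5 (3 libraries each). The spheres hold cells that survive and divide in this medium, and they are no model of the vessels, stroma and immune cells of a gland. The labels did not say whether libraries of a group came from separate animals or cultures, so p-values measure only the spread between these libraries, which may be technical.

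The main lacrimal gland makes the watery part of tears, and its acinar cells secrete proteins that bind or damage microbes. Lysozyme cuts the peptidoglycan of bacterial walls, Pglyrp1 binds peptidoglycan, lactotransferrin and lipocalin 2 withhold iron (the latter by binding bacterial siderophores), lactoperoxidase oxidises thiocyanate with hydrogen peroxide, and Slpi inhibits serine proteases such as neutrophil elastase. Pigr carries polymeric IgA made by plasma cells in the gland across the epithelium, where its outer part is released as the secretory component. Several of these proteins are also made by leukocytes: Lyz2 is a macrophage and neutrophil gene, and Ltf, Lcn2, Pglyrp1 and Slpi are known from neutrophils as well as from epithelia.

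Lyz1 and Lyz2 are neighbours on mouse chromosome 10 (GENCODE M21, build GRCm38: Lyz1 at chr10:117287797-117292868 and Lyz2 at chr10:117277331-117282321, both on the minus strand), and a stretch of their coding sequence is shown because reads of the pair could be confused. The stretch covers coding bases 43 to 132 of each transcript, 5′ to 3′ on the coding strand, and capitals mark the 13 of 90 bases at which the genes differ.
Lyz1: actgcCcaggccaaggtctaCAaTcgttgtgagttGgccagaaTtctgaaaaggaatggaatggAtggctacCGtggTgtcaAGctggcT
Lyz2: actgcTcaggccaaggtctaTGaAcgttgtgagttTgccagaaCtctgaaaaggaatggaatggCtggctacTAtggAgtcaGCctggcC
Over the whole coding sequence (444 bases in each, without the stop codon) 422 bases were identical (95%), 22 differed and the longest identical run was 118 bases. Of the windows of the Lyz1 transcript, 16.1% of those of 50 bases also occurred in the Lyz2 transcript, 2.06% of those of 100 bases and 0 of 1114 windows of 150 bases, the read length of the study. How the authors' counting treated a read that matched both genes was not given in the sources used here, so that the values of the pair are given with that limit. The exons of the 8 genes overlapped those of no other annotated gene, apart from 1 of 1180 exonic bases of Slpi shared with Mir7678.

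The remaining genes lie at chr9:111019271-111042767 (Ltf, plus strand), chr1:130826684-130852249 (Pigr, plus), chr7:18871331-18890459 (Pglyrp1, plus), chr11:87806428-87828289 (Lpo, minus), chr2:32384633-32388252 (Lcn2, minus) and chr2:164354070-164389095 (Slpi, minus) in the same annotation. For Ltf, Pigr, Pglyrp1 and Lcn2, the 4 genes that rose over the days of sphere culture once libraries were blocked by number, the 250 bases before the RefSeq transcription start (build GRCm38.p6) are shown, 5′ to 3′ on the strand of the gene, with matches to a searched motif in capitals. They come from chr9:111019042-111019291 (Ltf), chr1:130826434-130826683 (Pigr), chr7:18884440-18884689 (Pglyrp1) and chr2:32387740-32387989 (Lcn2).
Ltf: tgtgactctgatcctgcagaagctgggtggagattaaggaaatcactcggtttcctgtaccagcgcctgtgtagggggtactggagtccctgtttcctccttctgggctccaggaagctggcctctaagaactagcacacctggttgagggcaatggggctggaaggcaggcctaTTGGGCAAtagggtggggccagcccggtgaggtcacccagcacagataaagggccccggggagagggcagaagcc
Pigr: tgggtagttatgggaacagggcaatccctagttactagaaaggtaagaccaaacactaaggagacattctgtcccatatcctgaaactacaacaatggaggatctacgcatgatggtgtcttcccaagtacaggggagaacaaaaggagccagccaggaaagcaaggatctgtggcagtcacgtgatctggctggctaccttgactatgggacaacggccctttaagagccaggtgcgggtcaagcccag
Pglyrp1: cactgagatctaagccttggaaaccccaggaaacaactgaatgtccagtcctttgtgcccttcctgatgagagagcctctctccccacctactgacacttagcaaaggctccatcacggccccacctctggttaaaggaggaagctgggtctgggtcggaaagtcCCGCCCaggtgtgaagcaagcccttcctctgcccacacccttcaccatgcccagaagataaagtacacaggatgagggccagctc
Lcn2: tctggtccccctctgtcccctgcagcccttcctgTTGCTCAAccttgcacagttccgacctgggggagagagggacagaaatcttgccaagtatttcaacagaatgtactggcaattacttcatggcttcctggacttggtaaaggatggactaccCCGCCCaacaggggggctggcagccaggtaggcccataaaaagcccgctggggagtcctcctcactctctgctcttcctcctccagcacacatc
The motifs searched on both strands were ETS (CAGGAAGT), C/EBP-like (TTGCNNAA), the TATA box (TATAAA), the GC box (GGGCGG) and AP-1 (TGACTCA). The Ltf window held 1 C/EBP-like match, the Lcn2 window 1 C/EBP-like match and 1 GC box, the Pglyrp1 window 1 GC box, and the Pigr window none. Among 32851 promoter windows of this length, 9.56% held the C/EBP-like letters and 32.7% the GC box. A match is a run of letters and not a shown binding site.

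The deposited values were taken as FPKM (fragments scaled to exon length and to library size). Some genes may have been listed too low, as set out below, so rankings of different genes hold for the deposited values only. Read numbers recovered from the FPKM steps summed to 6434711 to 9257981 per tissue or passage 2 library and to 25181779 in the passage 10 library. Adult LG replicates 1 and 2 stood apart: their 10 most abundant genes took 60.4% and 59.6% of reads, against 31.3% in adult replicate 3, 6.76% to 8.07% in embryonic LG and 5.44% to 7.53% in the passage 2 spheres. In these 2 libraries the recovered reads were 2.67 and 2.57 times those that the deposited scale implies, against at most 1.13 elsewhere, so the members' values in adult LG are also given scaled to recovered reads below. That scaling moved the median log2 difference of all genes from adult LG from 0.05 to 0.57 for E17.5, from 0.09 to 0.52 for E19.5, from -0.03 to 0.54 for LGSC day 7 and from -0.02 to 0.61 for LGSC day 14. The share of called genes that were higher than in adult LG moved with it, from 53.8% to 79.7%, from 55.9% to 79.4%, from 41.5% to 74% and from 41.8% to 77.2% in the same order. Of the epithelial markers, Cdh1 lay between 121 and 916 FPKM and Krt18 between 130 and 1734 FPKM in all 20 tissue and passage 2 libraries, while Epcam, Krt8 and also Gapdh were listed at 0 in all of them, so that a 0 in these tables may be a failed estimate. The basal and progenitor marker Krt14 reached only 3.35 to 17.8 FPKM in passage 2 spheres against 7065 FPKM in the passage 10 library.

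**Figure D1:**
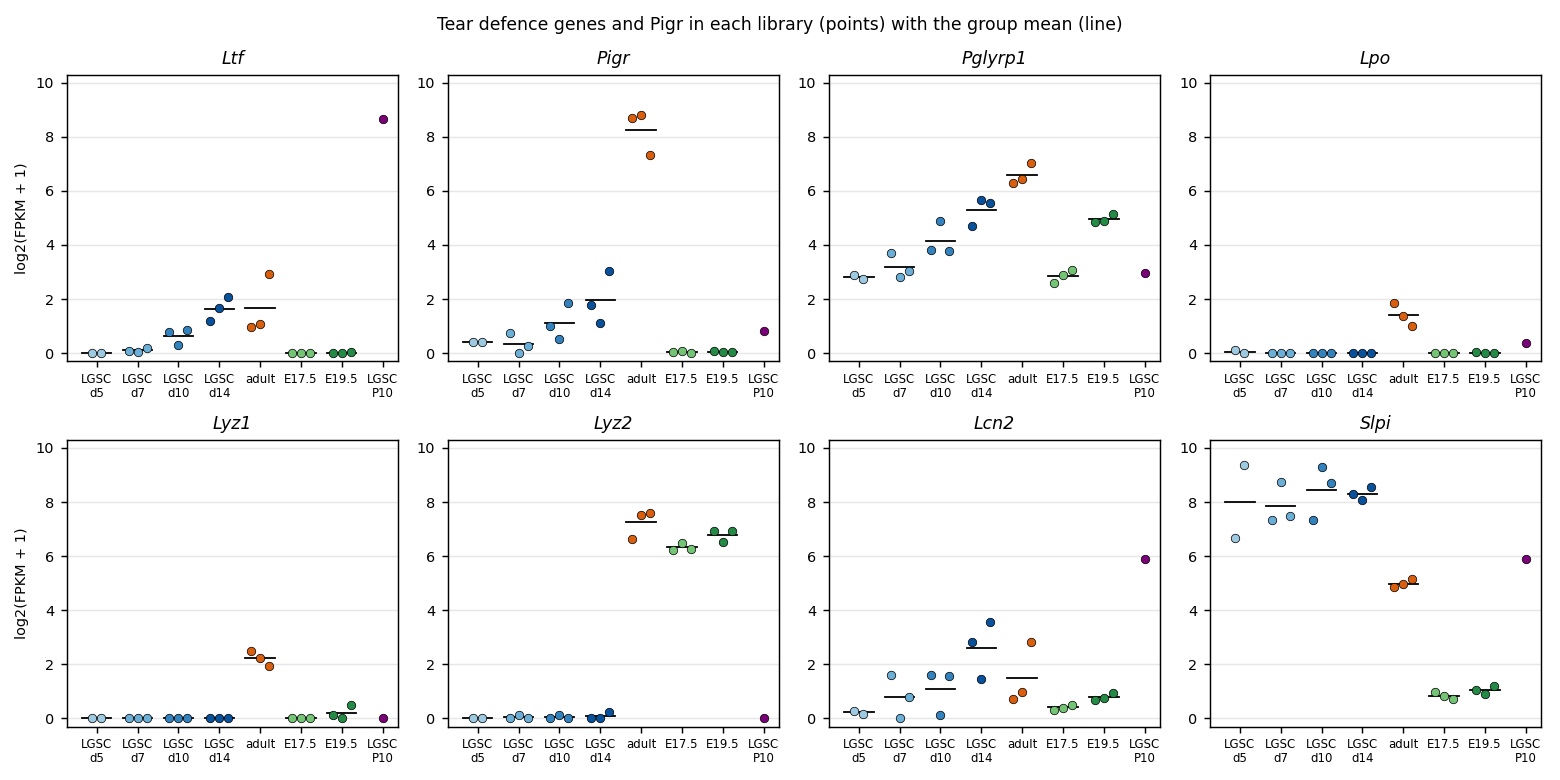
Level of each gene as log2(FPKM + 1) in every library: points are libraries, the line is the group mean, blue marks LGSC passage 2 by culture day (d5 to d14), orange adult LG, green E17.5 and E19.5 LG, and purple the passage 10 LGSC library (P10). Among these groups Pigr, Lpo and Lyz1 were highest in adult LG, Lyz2 was high in all 9 tissue libraries, and Slpi was higher in each passage 2 sphere library than in any tissue library.

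The tissue comparisons set the embryonic glands beside the mature gland. At E17.5, 7 of the 8 genes were lower than in adult LG, where 24.9% of the 18578 genes tested were lower (limma on log2(FPKM + 1), Benjamini-Hochberg adjusted p under 0.05). At E19.5, 6 of the 8 were lower, against 23.9% of all genes. Ltf, Pigr, Lpo and Lyz1 averaged under 0.5 FPKM at both embryonic stages, so they were tested only through adult LG. Such genes could only come out lower in embryonic LG, and their calls add nothing to the values given below. All adult libraries lay above all E17.5 libraries for 8 genes and above all E19.5 libraries for 6, as they did for 27.2% and 25.8% of all genes. None of the 8 genes was called higher in either embryonic stage. Both comparisons use the same 3 adult libraries. In these bulk samples, fewer cells of a type and less RNA per cell cannot be told apart.

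Pigr, the receptor that moves IgA into tears, had the highest deposited mean of the 8 genes in adult LG, although Lyz2 exceeded it in adult replicate 3. It stood at 408, 446 and 158 FPKM in the 3 adult libraries (337 ± 157, SD, n = 3), or 153, 174 and 143 after scaling to recovered reads. In the embryonic libraries it was close to 0, at 0.0319, 0.0516 and 0 FPKM at E17.5 and at 0.0568, 0.0276 and 0.0317 FPKM at E19.5, which are 0 to 2 recovered reads per library. Every adult library was far above every embryonic one. The log2 difference was -8.22 at E17.5 (SE 0.35, adjusted p = 6.6e-07) and -8.21 at E19.5 (SE 0.35, adjusted p = 7.55e-07). These differences, like all others here, are on the log2(FPKM + 1) scale, which understates the change of genes with low values.

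The secreted enzymes Lpo and Lyz1 had low deposited values in adult LG and were at or near 0 in embryonic LG. Lpo stood at 2.64, 1.61 and 1.00 FPKM in adult LG (0.991, 0.627 and 0.910 scaled to recovered reads), was listed at 0 in all E17.5 libraries, and was seen with 1 read in 1 of 3 E19.5 libraries. Lyz1 stood at 4.59, 3.75 and 2.80 FPKM in adult LG (14, 15 and 27 reads, or 1.72, 1.46 and 2.54 scaled), was listed at 0 in all E17.5 libraries, and stood at 0.0906, 0 and 0.404 FPKM at E19.5 (at most 4 reads). For neither gene did adult and embryonic libraries overlap. The adjusted p for Lpo was 0.000499 at E17.5 and 0.000578 at E19.5, and that for Lyz1 was 2.5e-05 and 4.79e-05; no fold is given against libraries listed at 0.

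Lyz2 was far above its neighbour Lyz1 in every tissue library. It stood at 97.3, 184 and 193 FPKM in adult LG, 73.7, 88.4 and 75.6 at E17.5 and 119, 91.7 and 120 at E19.5. The lowest adult library lay above all E17.5 libraries but inside the E19.5 range. The log2 difference was -0.93 at E17.5 (SE 0.26, adjusted p = 0.0169) and -0.46 at E19.5 (SE 0.26, adjusted p = 0.175). Scaling to recovered reads placed the adult libraries at 36.5, 71.5 and 175, so that they spanned the E17.5 range, and the E17.5 difference became 0.08 (adjusted p = 0.893), or -0.49 relative to the median of all genes under that scaling. The lower Lyz2 level at E17.5 was thus not kept under that scaling, although it was seen again with adult replicate 3 alone, as given below. Leukocyte transcripts were present in the same tissue libraries: the 5 pan leukocyte markers summed to 122 to 321 FPKM, and the 9 macrophage and monocyte markers, of which Cd68 was listed at 0 in all 20 libraries, to 87.7 to 697 FPKM. Their part in the Lyz2 levels was not tested.

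Pglyrp1, which binds bacterial peptidoglycan, was the 1 gene of the set called between the embryonic stages. It stood at 77.2, 84.8 and 128 FPKM in adult LG (96.7 ± 27.5, SD, n = 3), at 5.11, 6.38 and 7.42 at E17.5 (6.30 ± 1.16) and at 27.9, 28.7 and 34.5 at E19.5 (30.4 ± 3.59). The 3 stages did not overlap, with E19.5 between E17.5 and adult LG. The log2 difference from adult LG was -3.72 at E17.5 (SE 0.22, adjusted p = 3.74e-06) and -1.61 at E19.5 (SE 0.22, adjusted p = 0.000387). After scaling to recovered reads the adult libraries stood at 28.9, 33.0 and 116, and the E19.5 difference became -0.72 (adjusted p = 0.207), or -1.24 relative to the median of all genes, while the E17.5 difference was -2.72 (adjusted p = 0.0009).

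Slpi, the protease inhibitor, was lower in embryonic LG as well. It stood at 27.8, 30.2 and 34.4 FPKM in adult LG (30.8 ± 3.39, SD, n = 3; 10.4, 11.8 and 31.2 scaled to recovered reads), at 0.980, 0.791 and 0.635 at E17.5 and at 1.07, 0.848 and 1.30 at E19.5 (6 to 12 recovered reads per embryonic library). No embryonic library came near the adult ones. The log2 difference was -4.14 at E17.5 (SE 0.15, adjusted p = 3.29e-07) and -3.94 at E19.5 (SE 0.15, adjusted p = 4.97e-07).

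The iron-withholding pair Ltf and Lcn2 was uneven among the adult libraries. Ltf stood at 0.961, 1.10 and 6.65 FPKM in adult LG (8, 12 and 175 reads, or 0.360, 0.427 and 6.03 scaled), and was listed at 0 in all embryonic libraries but 1 of E19.5, which held 1 read. Lcn2 stood at 0.632, 0.962 and 6.15 FPKM in adult LG (4, 8 and 123 reads, or 0.237, 0.375 and 5.57 scaled), at 0.245, 0.316 and 0.429 at E17.5 and at 0.610, 0.678 and 0.923 at E19.5. Adult replicate 3 stood well above the other adult libraries for both genes, and it is the one with the smaller share of reads in its top genes. Ltf passed the test at both stages (adjusted p = 0.0138 and 0.0146), whereas Lcn2 did not, with a log2 difference of -1.10 (SE 0.48, adjusted p = 0.0829) at E17.5 and -0.71 (SE 0.48, adjusted p = 0.238) at E19.5. After scaling to recovered reads the Ltf test was not passed at either stage (adjusted p = 0.0718 and 0.0775).

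Because adult replicates 1 and 2 stood apart, the comparisons were repeated with adult replicate 3 alone, whose spread was then assumed to be like that of the other groups. Pigr, Pglyrp1, Slpi and Ltf were again lower at both stages, with log2 differences of -7.27, -4.16, -4.30 and -2.94 at E17.5 and -7.26, -2.05, -4.10 and -2.92 at E19.5. Lyz2 was again lower at E17.5 (-1.27, adjusted p = 0.00309) and now also at E19.5 (-0.81, adjusted p = 0.0168). Lcn2 was then lower too, by a log2 difference of -2.43 (adjusted p = 9.69e-05) at E17.5 and -2.04 (adjusted p = 0.000204) at E19.5. Lpo and Lyz1 then fell under the mean of 0.5 FPKM needed for a test. Of the neutrophil markers, which sum to 3.82 to 10.6 FPKM in tissue, S100a9 was listed at 0 in all 20 tissue and passage 2 libraries, and their part in the Ltf and Lcn2 levels was not tested.

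**Figure D2:**
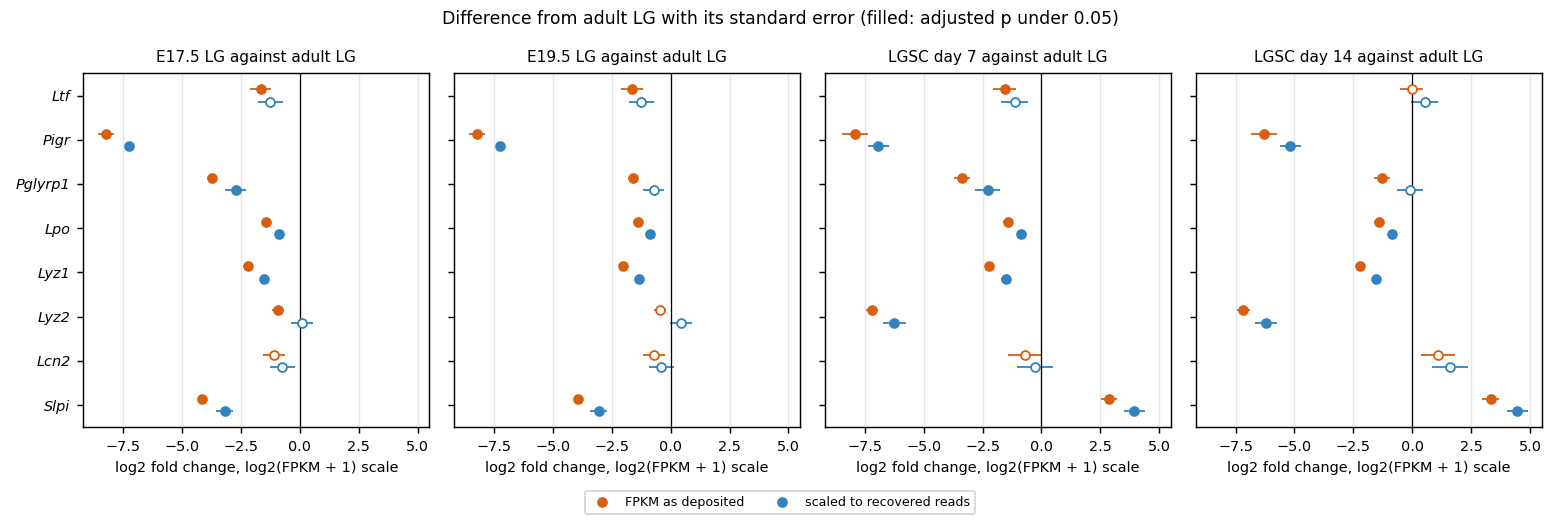
Log2 fold change of each gene from adult LG on the log2(FPKM + 1) scale, with its standard error as the horizontal bar, in E17.5 LG, E19.5 LG, LGSC day 7 and LGSC day 14; orange uses FPKM as deposited, blue the values scaled to recovered reads, and filled points have an adjusted p under 0.05. Slpi was the 1 gene called above adult LG in spheres, Lcn2 at day 14 and, when scaled, Ltf at day 14 lay above it without passing the test, Pigr and Lyz2 lay far below it in spheres, and the scaled values sat to the right of the deposited ones in each panel.

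Between E17.5 and E19.5, 1 of the 8 genes was called, against 1.11% of the 18578 genes tested that were higher at E19.5. Pglyrp1 rose 4.82-fold in mean FPKM, with a log2 difference of 2.11 (SE 0.22, adjusted p = 0.00527); scaled to recovered reads it was 2.0 with an adjusted p of 0.0950. Lyz2 and Lcn2 were also higher in each E19.5 library than in any at E17.5, with log2 differences of 0.47 (SE 0.26, adjusted p = 0.471) and 0.38 (SE 0.48, adjusted p = 0.806) that did not pass the test. With Pglyrp1, 3 of the 8 genes thus had all E19.5 libraries above all E17.5 ones, against 19.8% of all genes. Slpi differed by 0.20 (SE 0.15, adjusted p = 0.616), and the 0 to 4 reads of Ltf, Pigr, Lpo and Lyz1 allowed no difference to be detected.

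Passage 2 spheres were set beside the adult tissue that such cells are grown from. At day 7, 6 genes were lower and 1, Slpi, was higher than in adult LG, where 23.2% of 17663 genes were lower and 16.5% higher. At day 14, 5 were lower and Slpi was again higher, against 21.2% lower and 15.2% higher among all genes. Lpo, Lyz1 and Lyz2 averaged under 0.5 FPKM in these spheres, so they were tested only through adult LG and could only come out lower. Ltf and Pigr also averaged under 0.5 FPKM at day 7, so at that day they too could only come out lower. Such calls add nothing to the values given below. Sphere and adult libraries were fully apart for 7 genes on day 7 and for 6 on day 14, as for 51.9% and 47.4% of all genes. Both days were set against the same adult libraries as the embryonic stages.

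Slpi had the highest deposited values of the 8 genes in passage 2 spheres. Its level was 99.96 and 662 FPKM (day 5), 160, 429 and 176 FPKM (day 7), 160, 628 and 418 FPKM (day 10) and 316, 269 and 376 FPKM (day 14). The libraries of a day spread widely, the sphere days overlapped one another, and all 11 sphere libraries lay above the 27.8 to 34.4 FPKM of adult LG. The mean was 8.28 times that of adult LG at day 7 (log2 difference 2.86, SE 0.36, adjusted p = 0.000389) and 10.4 times at day 14 (3.33, SE 0.36, adjusted p = 0.000198). The day 7 ratio was 5.45 without day 7 replicate 2. Scaled to recovered reads, the ratios were 15.5 and 20.9 and the log2 differences 3.94 and 4.46, or 3.40 and 3.86 relative to the median of all genes. With adult replicate 3 alone the log2 differences were 2.70 (adjusted p = 0.0286) and 3.17 (adjusted p = 0.0206). In contrast to Slpi, the order of adult LG and spheres was the other way round for Pigr, Pglyrp1, Lpo, Lyz1 and Lyz2. For Pglyrp1 this held for the deposited values, and the ranges overlapped after scaling to recovered reads.

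Lyz2 was near 0 in spheres. It was listed at 0 in 8 of 11 passage 2 libraries and stood at 0.0972, 0.0987 and 0.183 FPKM (1, 1 and 2 reads) in 1 library each of days 7, 10 and 14. Against adult LG its log2 difference was -7.20 at day 7 (SE 0.27, adjusted p = 7.65e-07) and -7.17 at day 14 (SE 0.27, adjusted p = 8.55e-07). The 5 pan leukocyte markers summed to 0.712 to 3.67 FPKM in the same sphere libraries, with no overlap with the 122 to 321 FPKM of tissue. The macrophage markers Adgre1 and C1qa were listed at 0 in every sphere library; the macrophage and monocyte list nevertheless summed to 19.7 to 372 FPKM there, most of it from Cd14, a receptor for bacterial lipopolysaccharide whose mean was 51.9 FPKM at day 5 and 241 FPKM at day 14. Lyz1 was listed at 0 in all 11 sphere libraries and Lpo in 10 of 11, the other holding 2 reads. Their adjusted p against adult LG was 3.74e-05 and 0.00123 at day 7 and 4.08e-05 and 0.00143 at day 14.

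**Figure D3:**
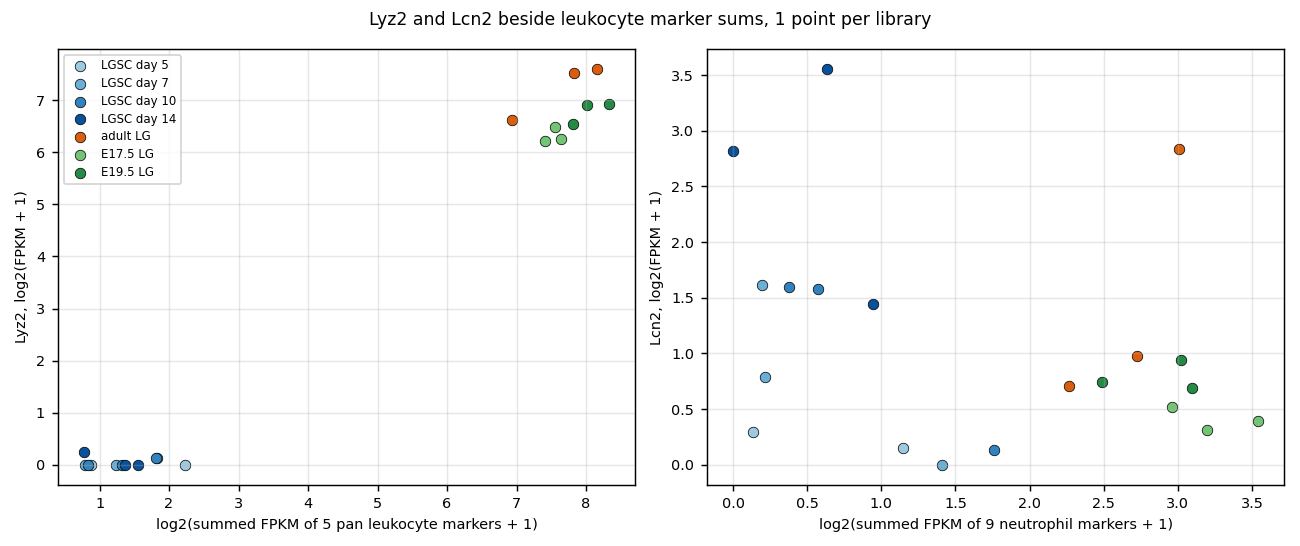
One point per library for the 20 tissue and passage 2 libraries, coloured by group: left, Lyz2 against the summed FPKM of 5 pan leukocyte markers; right, Lcn2 against the summed FPKM of 9 neutrophil markers, all as log2(FPKM + 1). The 9 tissue libraries hold high values on both axes at left and the 11 sphere libraries low ones, whereas at right the highest Lcn2 values include day 14 spheres, whose neutrophil marker sums were low.

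Pigr was retained at a low level in spheres. Its level was 0.321 and 0.330 FPKM (day 5), 0.671, 0 and 0.194 FPKM (day 7), 1.01, 0.419 and 2.61 FPKM (day 10) and 2.40, 1.14 and 7.23 FPKM (day 14). All sphere libraries were far below adult LG and, apart from the day 7 library listed at 0, above all embryonic LG libraries. The log2 difference from adult LG was -7.93 at day 7 (SE 0.55, adjusted p = 1.88e-05) and -6.29 at day 14 (SE 0.55, adjusted p = 6.8e-05), when the adult mean was 93.9 times the sphere mean (37.8 times scaled to recovered reads, and 190 times without day 14 replicate 3). With adult replicate 3 alone the differences were -6.98 and -5.34.

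Among sphere days, Pglyrp1 was closest to adult LG at day 14. Its level was 6.40 and 5.70 FPKM on day 5 (mean 6.05 ± 0.497, SD, n = 2), then 12.0, 6.06 and 7.29 FPKM on day 7 (8.45 ± 3.13, n = 3). It was 13.2, 28.3 and 12.5 FPKM on day 10 (18.0 ± 8.90, n = 3), then 25.2, 49.4 and 46.0 FPKM on day 14 (40.2 ± 13.1, n = 3). The day 14 libraries stayed below the lowest adult one, and they overlapped the E19.5 LG and day 10 ranges. The log2 difference from adult LG was -3.38 at day 7 (SE 0.34, adjusted p = 0.000135) and -1.27 at day 14 (SE 0.34, adjusted p = 0.0201). At day 14 it was -0.10 (adjusted p = 0.879) after scaling to recovered reads, which is -0.71 relative to the median of all genes, and -1.71 (adjusted p = 0.0752) with adult replicate 3 alone.

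Ltf reached the range of adult LG in day 14 spheres. Lcn2 lay inside its adult range already at day 7 in replicates 1 and 3 (2.06 and 0.724 FPKM). Ltf was listed at 0 in both day 5 libraries and had 0.0626, 0.0371 and 0.129 FPKM on day 7 (1 to 4 reads), then 0.721, 0.226 and 0.804 FPKM on day 10, and finally 1.27, 2.18 and 3.21 FPKM on day 14 (39, 67 and 92 reads). It was lower than in adult LG at day 7 (log2 difference -1.55, SE 0.49, adjusted p = 0.0346), a call that was lost when any 1 of the 3 day 7 libraries was left out (adjusted p 0.0785 to 0.0838), and it differed by -0.02 (SE 0.49, adjusted p = 0.983) at day 14. Its sign turned under scaling to recovered reads (0.53, adjusted p = 0.447; -0.07 relative to the median of all genes), and with adult replicate 3 alone the difference was -1.29 (adjusted p = 0.0561).

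Lcn2 varied more between libraries of a day. Its level was 0.224 and 0.112 FPKM (day 5), 2.06, 0 and 0.724 FPKM (day 7), 2.03, 0.0990 and 1.98 FPKM (day 10) and 6.03, 1.71 and 10.7 FPKM (day 14). The library numbered 2 was the lowest on each of these days. The log2 difference from adult LG was -0.71 (SE 0.71, adjusted p = 0.463) at day 7 and 1.10 (SE 0.71, adjusted p = 0.262) at day 14, neither past the test, and with adult replicate 3 alone the day 14 value was -0.24 (adjusted p = 0.886). The 9 neutrophil markers, of which S100a9 was listed at 0 in every passage 2 library, summed to 0 to 2.38 FPKM in spheres. Their sum was 0.553 FPKM in the day 14 library with the highest Lcn2. The part of neutrophils in the sphere Lcn2 levels was not tested.

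The course over culture days was followed in passage 2 spheres alone, in which Lpo, Lyz1 and Lyz2 were too low to be tested. With day as a number over 11 libraries, 2 of the 5 genes tested rose, against 0.648% of the 15584 genes tested. Ltf and Pigr averaged under 0.5 FPKM at days 5 and 7, so they were tested only through later days. Such genes could only come out rising, and their calls here and with the block below add nothing to their values. Ltf rose by 0.19 per day (SE 0.03, adjusted p = 0.00906) and Pglyrp1 by 0.29 per day (SE 0.04, adjusted p = 0.00906) on the log2(FPKM + 1) scale. Both calls were lost with days 7, 10 and 14 only, when no gene was called, although the slopes were 0.22 (adjusted p = 0.169) and 0.30 (adjusted p = 0.176). Sphere libraries with the same number deviated together, and with the number as a replicate block 4 of the 5 genes rose, when 2.12% of the 15584 genes tested rose. Pigr then rose by 0.18 per day (adjusted p = 0.0388) and Lcn2 by 0.24 per day (adjusted p = 0.0151), against 0.20 (SE 0.05, adjusted p = 0.0699) and 0.25 (SE 0.06, adjusted p = 0.0646) without the block. Slpi did not pass in either fit, with 0.05 per day (SE 0.07, adjusted p = 0.746). Without the libraries numbered 2, Ltf, Pglyrp1 and Lcn2 (0.30 per day, adjusted p = 0.0217) rose.

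**Figure D4:**
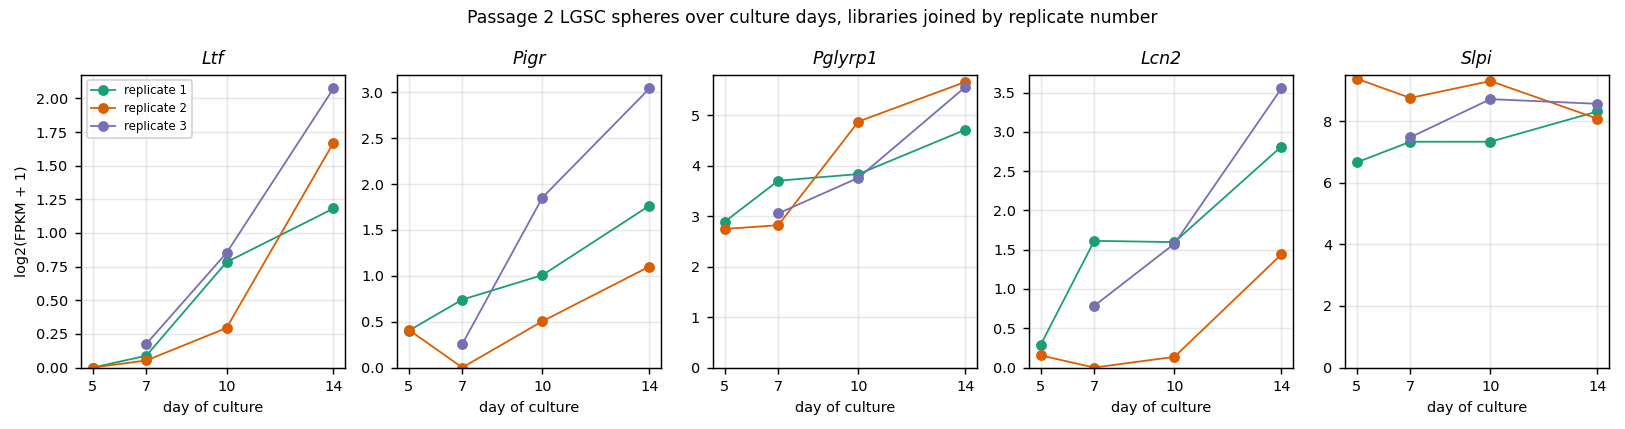
Ltf, Pigr, Pglyrp1, Lcn2 and Slpi as log2(FPKM + 1) by day of culture in passage 2 LGSC spheres; points are libraries, lines join libraries with the same replicate number, and each panel has its own vertical scale starting at 0. Ltf and Pglyrp1 are higher at day 14 than at day 7 in all 3 lines, and the library numbered 2 is the lowest for Lcn2 on every day, and for Slpi it is the highest up to day 10 and the lowest at day 14.

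Day 14 against day 7 called none of the 15744 genes tested (0%) and so none of the 5 members tested. At an unadjusted limma p under 0.05 there were 1557 genes, Ltf, Pigr, Pglyrp1 and Lcn2 among them. The study made the same contrast with DESeq2 and lists genes that differed. Its qRT-PCR found Ltf significantly higher in spheres of the longest culture. The limma fit used here is another test on other values, so its empty result does not carry over to that list. The mean FPKM at day 14 was 29.1 times that at day 7 for Ltf, 12.5 times for Pigr, 4.76 times for Pglyrp1, 6.64 times for Lcn2 and 1.26 times for Slpi. With 1 library left out these ratios ranged from 22.6 to 44.5 for Ltf (44.5 without day 7 replicate 3), from 6.14 (without day 14 replicate 3) to 37.0 (without day 7 replicate 1) for Pigr, from 4.17 to 6.02 for Pglyrp1, from 4.18 (without day 14 replicate 3) to 17.0 (without day 7 replicate 1) for Lcn2 and from 1.06 to 1.91 for Slpi (1.91 without day 7 replicate 2). The log2 differences were 1.54 (SE 0.24, adjusted p = 0.386), 1.64 (SE 0.50, adjusted p = 0.444), 2.12 (SE 0.34, adjusted p = 0.386), 1.8 (SE 0.63, adjusted p = 0.469) and 0.47 (SE 0.39, adjusted p = 0.700) in the same order. All day 14 libraries lay above all day 7 libraries for Ltf, Pigr and Pglyrp1, against 8.26% of all genes. Ltf and Pigr averaged under 0.5 FPKM at day 7, so they were tested only through day 14 and could only come out higher. With reads recovered and the number as a block, 89 genes were called, of which 1 was a member, Ltf (adjusted p = 0.0299).

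Other secreted defence genes of a wider list (51 genes) shared the adult pattern only in part. Of 19 tested in tissue, 9 were lower and 4 higher at E17.5 than in adult LG, with a median log2 difference of -2.18 against 0.05 for all genes, and 9 were lower and 5 higher at E19.5 (-1.19 against 0.09), where 29.1% and 30.3% of all genes were higher. Of 23 tested in spheres, 6 were lower and 2 higher at day 7 (-0.49 against -0.03), and 5 were lower and 5 higher at day 14 (-0.03 against -0.02). In spheres 23.2% and 21.2% of all genes were lower, so that the list's counts of lower genes were near the background. Some listed genes, such as Lcn3 and Dmbt1, averaged under 0.5 FPKM in embryonic LG and in these spheres, and could only come out lower. Genes listed at 0 in adult LG, such as Defb14, could only come out higher. None was called between the embryonic stages, between days 14 and 7 or along the culture days. The lower ones included the whey acidic protein family gene Wfdc12, with 317 to 8972 FPKM in adult LG and log2 differences of -11.23 at E17.5 and -10.43 at day 14, and the haemoglobin-binding Hp, with 890 to 3241 FPKM in adult LG and -8.69 and -8.48. The higher ones included Wfdc2, another gene of the family to which Slpi belongs, with 44.3 FPKM in adult LG, 450 at day 7 (log2 difference 3.35) and 883 at day 14 (4.35). The beta-defensin Defb14 was listed at 0 in adult LG and varied widely in spheres, from 6.88 to 252 FPKM at day 7 (mean 90.1, or 9.19 without the highest library) and from 6.60 to 405 FPKM at day 14 (mean 155, or 29.8 without the highest library).

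Genes of IgA production and transport (15 genes) were mostly lower outside adult LG, as Pigr was. Of 10 tested in tissue, 8 were lower and 1 higher at E17.5 and 7 lower and 1 higher at E19.5; of 11 tested in spheres, 8 were lower and 1 higher at both day 7 and day 14. Of all genes, 24.9%, 23.9%, 23.2% and 21.2% were lower in these 4 comparisons. Some listed genes, such as Jchain and, in spheres, Ighm, averaged under 0.5 FPKM outside adult LG. They were tested only through adult LG and could only come out lower, so the counts are not an open test. Ccl28, the chemokine that draws IgA-secreting cells to mucosal glands, had 57.9 to 294 FPKM in adult LG and log2 differences of -6.64 at E17.5 and -6.29 at day 14. Mzb1, a plasma cell gene, had 38.5 FPKM in adult LG and fell by 3.44 at E17.5 and 4.64 at day 14 on the log2 scale. Mal2, a protein of transcytosis in polarised epithelia, was the 1 higher gene, with 5.83 to 21.2 FPKM in adult LG, 45.1 to 55.9 at E17.5 and 57.9 to 202 at day 14. The plasma cell markers summed to 45.1 to 67.5 FPKM in adult LG, 3.34 to 5.06 in embryonic LG and 1.26 to 3.29 in spheres, with Igha listed at 0 in all 20 libraries; their part in the Pigr difference was not tested. Of the peroxidase system (9 genes), which supplies or resembles lactoperoxidase, only 2 genes were high enough to be tested in tissue and 3 in spheres. The phagocyte oxidase gene Cybb was lower than in adult LG in all 4 comparisons (log2 differences -2.19, -1.89, -3.23 and -2.02 for E17.5, E19.5, day 7 and day 14). The others tested were not called, so little can be said of the system as a whole.

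The genes with the most similar profile over the 20 tissue and passage 2 libraries differed from member to member (Pearson correlation of log2(FPKM + 1) over 10664 genes, a description of libraries that share groups). Lyz2 was closest to Folh1, Laptm5 and Tyrobp (r = 0.996 each), of which the last pair were among the pan leukocyte markers. Pigr was closest to Gm15889 (0.980), Gm28836 (0.978) and Xbp1 (0.978), a transcription factor of secretory cells. Lpo was closest to Gm12876 (0.997), Igkv17-127 (0.997) and Igkv6-15 (0.996), and Lyz1 to Gjb1 (0.991), Gm13539 (0.990) and Sval3 (0.990). Slpi was closest to Pcdh1 (0.971), Ctsd (0.970) and Cep170b (0.968). Ltf, Pglyrp1 and Lcn2 had looser neighbours: Pglyrp1 had Phf11d (0.935), Ceacam1 (0.903) and Dusp5 (0.893), Lcn2 had Tmem176a (0.881), Trim30d (0.866) and P4ha2 (0.856), and Ltf had Kiss1r (0.867), H2-T23 (0.852) and Ifi205 (0.848). Among the members themselves, Lpo and Lyz1 were the most alike (0.978) and Lyz2 and Slpi the most opposed (-0.866).

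Passage 10 spheres at day 7 were a single library with another gene list, so their values are set beside the others with no test. Ltf stood at 407 FPKM, Slpi at 58.5, Lcn2 at 57.7, Pglyrp1 at 6.78, Pigr at 0.742 and Lpo at 0.308, and Lyz1 and Lyz2 were listed at 0. Ltf thus had the highest deposited value of the 8 genes in this library, whereas in passage 2 spheres of the same day it had 1 to 4 reads. Slpi lay below all passage 2 libraries, Pglyrp1 inside the day 7 range and Pigr above it. Neutrophil markers summed to 84.3 FPKM there, from S100a9 (68.0 FPKM, listed at 0 in the other 20 libraries) and S100a8 (16.1 FPKM), genes that stratified epithelia also express. Of the 436 genes at 100 FPKM or more in this library, 40 were listed at 0 in all 20 others, so a difference of passage and a difference in how the tables were made cannot be told apart.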

How the data were processed

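Per the labels and the study's methods, polyadenylated RNA was made into NEBNext Ultra libraries and sequenced as 150-base read pairs; the submitters' processing notes name CASAVA 1.8, HISAT2 2.0.5, featureCounts 1.5.0-p3 and the build NCBIM37, and the study names DESeq2 for its own tests. Each deposited table of the authors gave a single number per gene, taken as FPKM because the values multiplied by exon length (GENCODE M21) fell on steps of whole reads: within 0.01 reads for 92.6% to 93.6% of genes of up to 1000 reads. Of 24 samples listed, 21 were used and 3 were not analysed here.

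The members and the gene lists were chosen with earlier results of these data known. Genes averaging 0.5 FPKM or more over the libraries of a fit were tested with limma 3.58.1 (R 4.3.3, lmFit and eBayes with a trend) on log2(FPKM + 1), with Benjamini-Hochberg adjustment over all genes tested and a threshold of 0.05. A gene could pass through a single group, and such a gene could be called in a single direction only. The 9 tissue libraries shared one fit, adult LG with days 7 and 14 another, and days 7 and 14 alone and all culture days were fitted apart. A wider list was named by its 3 largest rises and falls among called genes at most, and each member by the 3 genes of most similar profile among those averaging 1 FPKM or more. The fit was also run on simulated data with known changes. Those data held neither the scale shift of adult replicates 1 and 2 nor any deviation by library number, so they cannot speak to either. In culture, libraries with the same number deviated together (all 15 pairs of different days correlated, 0.260 to 0.719), so the number was used as a replicate block beside the result. Figures were drawn with matplotlib 3.10.9.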

Additional observations from a re-analysis of the deposited data

Results flagged for a closer look

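Values of 3 members in the passage 10 library, which took part in no test, lay above the highest passage 2 library. Ltf stood at 407 FPKM against at most 3.21 FPKM in passage 2 (127 times), Lcn2 at 57.7 FPKM against at most 10.7 FPKM (5.38 times) and Lpo at 0.308 FPKM against at most 0.0750 FPKM (4.11 times). With 1 library there was no replicate check, and passage and the making of the table cannot be told apart.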

How the results depend on the processing

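Of 811 recomputed member differences, 757 kept direction and side of the threshold, 24 lost the call, 16 gained it and 14 turned sign; no turned value passed the test. Lyz2 turned at E17.5 against adult LG to 0.052 (limma-voom on recovered reads) and 0.081 (values scaled to recovered reads), and at E19.5 to 0.41, 0.44 and, with voom and the replicate block, 0.33. Ltf at day 14 against adult LG turned to 0.090 (pseudocount 0.1), 1.20 (voom), 0.88 (voom with block) and 0.53 (scaled), and ranged from -0.36 to 0.62 with 1 library left out (0.21 without day 14 replicate 1, 0.62 without adult replicate 3). Lcn2 at day 14 turned to -0.24 without adult replicates 1 and 2, the Slpi slope to -0.011 without day 5 replicate 1 (up to 0.12 with another library left out), and Pigr between E19.5 and E17.5 to -0.0043 without E17.5 replicate 3 (up to 0.032). The causes were not tested.

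Genes called between E19.5 and E17.5 (323) became 162 (pseudocount 0.1), 100 (replicate block), 40 (voom), 6 (voom with block), 170 (scaled) and 511 (all 20 libraries in one fit), and 50 to 1736 with 1 library left out (50 without E17.5 replicate 1, 1736 without adult replicate 3); members called were 0 under voom, voom with block and scaling. Without adult replicates 1 and 2, an alternative chosen after seeing the data as was leaving out the culture libraries numbered 2, 4288 genes were called at day 7 and 3441 genes and 3 members at day 14 against adult LG. Day 14 against day 7 gave 89 genes and 1 member under voom with block and 50 genes and 1 member (Pglyrp1) with all 20 libraries in one fit. The slope (334 genes, 2 members) gave 82 genes without the filter, 783 genes and 4 members with the block, 1003 genes and 4 members under voom with block, 0 genes and 0 members with days 7, 10 and 14 only, and 11 to 384 genes (11 without day 5 replicate 1) with 1 library left out. With 1 library left out, members called ranged from 5 to 7 at E17.5, 5 to 6 at E19.5, 6 to 7 at day 7 and 5 to 6 at day 14 against adult LG. Tissue and adult comparisons showed no pairing by number, and the block changed no other member call. Lyz2 at E17.5 lost its call without adult replicate 2 (adjusted p = 0.0593) or E17.5 replicates 1 or 3 (0.0568 and 0.0535), and Pglyrp1 at day 14 without day 14 replicate 1 (0.0619). Lcn2 at E17.5 gained a call with a pseudocount of 0.1 (adjusted p = 0.0411) and without adult replicate 1 or 3 (0.0286 and 0.0334). Tests on deposited counts were not run since none were given, and the voom fits used reads recovered from the FPKM steps. Lpo and Lyz1 held at most 24 and 27 recovered reads in any library, and embryonic Ltf and Pigr at most 1 and 2.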
